A study of Mus musculus with 2 samples.

Results

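The 8 genes described here hold epithelial cells together. They encode the claudins Cldn3, Cldn4 and Cldn7, occludin (Ocln), the scaffold protein zonula occludens-1 (Tjp1), the cell adhesion molecule Epcam, E-cadherin (Cdh1) and liver-intestine cadherin (Cdh17). They were taken by name, wherever any of the 11 clusters of the deposited table gave them, and all 8 were found among the 18319 genes that the table names. The cells came from tumors grown from injected mouse dysplastic stem cells, called DP-DSC in the labels, in female mice of the strain NuJ, a name of nude mice, which lack a thymus. A cystic adenocarcinoma was taken 10 weeks and a tubular adenocarcinoma 13 weeks after the injection, with 1 library of each. Single cells were captured with barcoded beads in droplets on the inDrop platform, and the labels call the cell type tumor cells. The sources used here do not give genotypes of the injected cells, the number of animals behind each tumor or any sorting of cells.

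Tight junctions are belts at the top of epithelial cells where claudins of neighbouring cells meet and set which ions and water pass between the cells. Occludin sits in the same strands, and the zonula occludens proteins tie the strands to actin. E-cadherin forms the adherens junction just below, bound inside the cell to catenins. EPCAM is a surface protein of simple epithelia that binds claudin-7, and cadherin-17 is an adhesion protein of intestinal epithelium that also appears in gastric intestinal metaplasia and in gastric cancer.

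The table gives, for each cluster of cells, gene names with a linear fold above 1.5 and a p-value, and the genes of a cluster come in the order of that p. Its clusters carry numbers and no tumor type, so the cystic and tubular tumors could not be compared. What the fold is relative to is not stated. The sources used here give neither the depth of sequencing nor how many cells each cluster holds. Each value is 1 deposited number with no replicate, so no error across animals can be given and no test was run. A gene is called listed where the table gives it for a cluster, and raised where its deposited fold is at least 2 and its deposited p at most 0.05. A gene that is not listed may be lower, equal or raised by less than 1.5-fold, and the table does not say which.

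Of the 88 possible pairs of a gene and a cluster, the 8 genes were listed in 23 and raised in 13. Listed pairs made up 26.1% of those possible, against 23.3% over all named genes, and raised pairs 14.8% against 10.0%. Most of these pairs lay in a few clusters. Clusters 3, 5, 6 and 9 held 21 of the 23 listed pairs and 12 of the 13 raised pairs. The same 4 clusters held 49.2% of all listed and 50.1% of all raised pairs of the table, and they were picked here because at least 2 of the 8 genes were raised in each. The remaining listed pairs were Cdh1 in cluster 7 and Tjp1 in cluster 1, and clusters 2, 4, 8, 10 and 11 listed none of the 8 genes. Among all named genes, 30.2% were likewise absent from those 5 clusters.

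**Figure D1:**
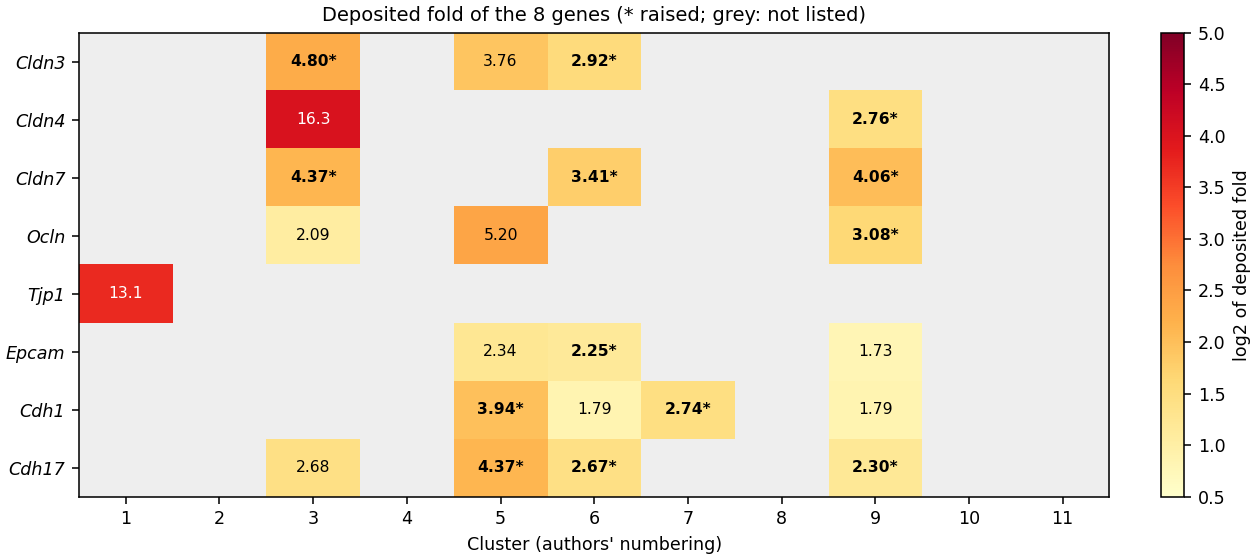
Deposited fold of the 8 genes (rows) in the 11 clusters (columns); the colour gives the log2 of the fold, the printed number the linear fold, an asterisk a raised gene, and grey a gene that is not listed. Filled cells stand in clusters 3, 5, 6 and 9, apart from Tjp1 in cluster 1 (13.1) and Cdh1 in cluster 7 (2.74).

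Keratins and gastric mucous genes were raised mainly in the same clusters. Of 5 simple epithelial keratins (Krt7, Krt8, Krt18, Krt19 and Krt20), all 5 were listed in clusters 3, 6 and 9, with 4, 3 and 4 raised, and 3 were listed in clusters 5 and 7, with 1 raised in each. Of 8 surface mucous cell genes, 7, 7 and 6 were listed in clusters 3, 6 and 9, with 4, 6 and 6 raised, and 3 in cluster 5, with 1 raised. Cluster 5 also listed 3 of 7 mast cell genes, 2 of them raised, and the authors' deposited table had the mast cell protease Cpa3 at 178. Their part in the values of cluster 5 was not tested.

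The 5 clusters without any of the 8 genes carried markers of other cells. All 10 macrophage genes were raised in clusters 4 and 8, and 4 of them in cluster 10. In cluster 8, 5 of 7 dendritic cell and 2 of 7 T and NK cell genes were raised. In cluster 10, 6 of 8 neutrophil, 5 of 7 T and NK cell and 2 of 7 endothelial genes were raised. Cluster 11 had all 9 fibroblast genes and 2 of 7 endothelial genes raised, and cluster 2 had 5 of 7 erythroid genes raised. Cluster 2 also listed 4 of 8 neutrophil genes and 1 of 5 keratins, with 0 raised in either list. The shares of all named genes raised in these clusters are given below. Cluster 1, which listed Tjp1, listed 6 of 7 erythroid genes with 1 raised, and 0 of 5 keratins. Of the 93 further junction genes described below, 4 were raised in cluster 1 (4.30%, beside 1.82% of all named genes).

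Cluster 9 listed the most of the 8 genes, 6, and raised 4: Cldn4, Cldn7, Ocln and Cdh17. That is 75.0% listed and 50.0% raised, beside 38.9% and 26.6% over all named genes. In cluster 6, 5 were listed and 4 raised (Cldn3, Cldn7, Epcam and Cdh17), with 36.4% of all named genes listed and 20.3% raised. Cluster 3 listed 5 and raised Cldn3 and Cldn7, where 29.9% of all named genes were listed and 4.0% raised. Cluster 5 also listed 5 and raised Cdh1 and Cdh17, beside 20.6% of all named genes listed and 4.32% raised.

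Cdh1 alone was listed and raised in cluster 7, where 12.1% of all named genes were listed and 3.42% raised. Tjp1 alone was listed, and not raised, in cluster 1, where the shares were 6.34% and 1.82%. The clusters that listed none of the 8 genes were not all poor in genes. Of all named genes, cluster 2 listed 9.07% and raised 2.89%, cluster 4 listed 31.5% and raised 18.6%, and cluster 8 listed 26.4% and raised 6.36%. Cluster 10 listed 18.9% and raised 4.90%, and cluster 11 listed 25.7% and raised 17.0%.

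**Figure D2:**
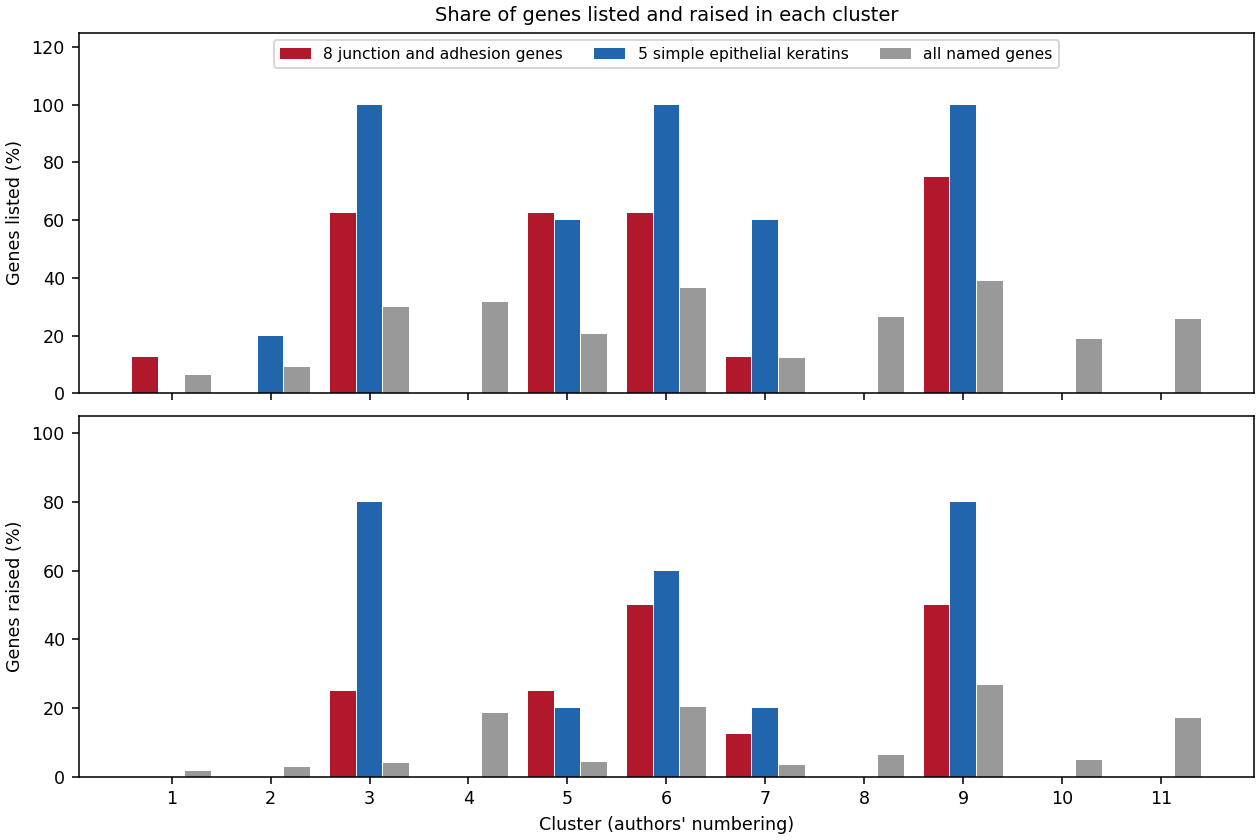
Share of genes listed (upper panel) and raised (lower panel) in each cluster, in percent, for the 8 junction and adhesion genes (red), 5 simple epithelial keratins (blue) and all 18319 named genes (grey). In both panels red and blue bars stand above grey in clusters 3, 5, 6, 7 and 9. The red bar of cluster 7 is barely so in the upper panel (12.5%, against 12.1%). In cluster 1 red stands above grey in the upper panel alone (12.5%, against 6.34%). Red bars are absent in clusters 2, 4, 8, 10 and 11.

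The claudins differed in which epithelial clusters listed them. Cldn7, a claudin of gut and kidney epithelium, was raised in clusters 3, 6 and 9, where the authors' deposited table gave 4.37, 3.41 and 4.06 as its folds. Its 3 folds lay within a narrow range, and it was the only one of the 8 genes raised in all 3 of these clusters. Cldn3, a sealing claudin, was listed in clusters 3, 5 and 6, and its folds there were 4.80, 3.76 and 2.92 by the authors' deposited table. It was raised in clusters 3 and 6; in cluster 5 its p was above 0.05, and cluster 9 did not list it.

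Cldn4, a claudin that lowers sodium passage between cells, was listed by the authors' deposited table in clusters 3 and 9, at 16.3 and 2.76. The larger of these folds was not raised, since its p was above 0.05, and the smaller was. Cldn3 and Cldn4 are neighbours, Cldn3 on the plus strand of chromosome 5 from 134986214 to 134987472 and Cldn4 on the minus strand from 134945119 to 134946934 (GRCm38), with 39279 bases between them. They shared cluster 3 alone, and no cluster had both raised. Cldn7 lies on chromosome 11 from 69964779 to 69967885, on the plus strand.

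Ocln and Tjp1, the strand protein and its scaffold, had no cluster in common. Ocln, on the minus strand of chromosome 13 from 100496507 to 100552718, was listed by the authors' deposited table in clusters 3, 5 and 9, with the folds 2.09, 5.20 and 3.08. It was raised in cluster 9 alone, the other two having a p above 0.05. Tjp1, on the minus strand of chromosome 7 from 65296165 to 65527781, was listed by the authors' deposited table in cluster 1 alone, at 13.1 and with a p above 0.05. It is the member of the 8 that was raised nowhere.

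Epcam, on the plus strand of chromosome 17 from 87635979 to 87651129, was listed by the authors' deposited table in clusters 5, 6 and 9, with the folds 2.34, 2.25 and 1.73. Only the value in cluster 6 was raised; in cluster 5 the p was above 0.05 and in cluster 9 the fold was under 2. Epcam and Cldn7, whose proteins bind each other, were both listed in clusters 6 and 9 and both raised in cluster 6.

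E-cadherin and cadherin-17 were each listed in 4 clusters, more than any other of the 8 genes. Cdh1, on the plus strand of chromosome 8 from 106603351 to 106670246, stood in the authors' deposited table at 3.94, 1.79, 2.74 and 1.79 in clusters 5, 6, 7 and 9. It was raised in clusters 5 and 7, while its folds in clusters 6 and 9 were under 2. Cdh17, on the plus strand of chromosome 4 from 11758147 to 11817895, stood in the authors' deposited table at 2.68, 4.37, 2.67 and 2.30 in clusters 3, 5, 6 and 9. It was raised in the last 3 of these. Cluster 5, where both cadherins were raised, gave each its largest fold.

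Of the 10 listed pairs that were not raised, 7 had a p above 0.05 and 3 had a fold under 2. The 3 were Cdh1 in clusters 6 and 9 and Epcam in cluster 9, and these stood near the top of their clusters by p. Epcam was number 25 by p of 6664 genes listed in cluster 6 and number 54 of 7131 in cluster 9, while by fold it was number 4056 and number 6052. Cdh1 was number 60 by p in cluster 6 and number 88 in cluster 9, but number 5461 and number 5782 by fold. Thus in both clusters the order by p put Epcam and Cdh1 within the first 100 genes, and the order by fold put them in the lower part of the list.

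Cldn4 in cluster 3 had the reverse order, number 178 of 5474 by fold and number 1292 by p. Tjp1 in cluster 1 was number 324 by fold and number 465 by p of 1161 genes. Cldn7 in cluster 9 was number 85 by p and 1504 by fold of 7131 listed genes. Cldn3 in cluster 3 was number 89 by p and 1225 by fold of 5474. Among raised genes only, Cldn7 was number 1488 of 4871 by fold in cluster 9, and Cldn3 number 442 of 733 in cluster 3. Of the 23 listed pairs, 6 were within the first 100 by p and 3 had a fold of at least 5. The levels and the shares of cells with these transcripts are not part of the table.

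**Figure D3:**
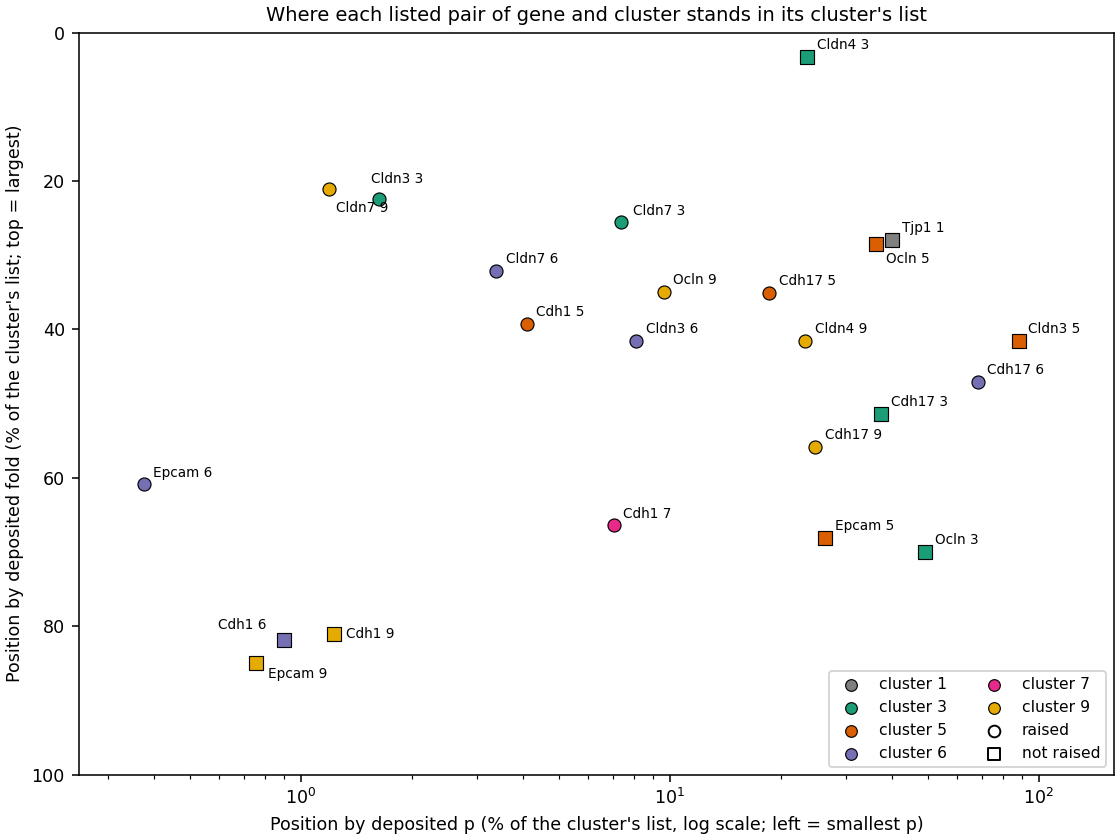
Each point is 1 of the 23 listed pairs of a gene and a cluster (labelled with both), placed by its position in the cluster's list by deposited p (horizontal, percent of the list, log scale) and by deposited fold (vertical, percent of the list, largest at the top); circles are raised and squares not. Epcam in clusters 6 and 9 and Cdh1 in clusters 6 and 9 stand at the lower left, within the first 1.23% by p and below 60% by fold, and Cldn4 in cluster 3 stands at the top, at 3.25% by fold and 23.6% by p.

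Within each cluster, the listed members were set beside all listed genes by their median fold. In cluster 3 the median of the 5 listed members was 4.37, against 2.73 for all listed genes of the authors' deposited table, and in cluster 5 it was 3.94 against 3.16. In clusters 6 and 9 the medians were 2.67 against 2.57 and 2.53 against 2.46 in the authors' deposited table. In these last clusters the members were listed more often than genes in general, with folds of about the usual size there.

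Other claudins were fewer, and most of their raised pairs lay in the same clusters. Of 25 further claudins sought, 7 were named in the table and 6 were raised in at least 1 cluster. Of all named genes, 78.0% were raised in at least 1 cluster. Raised pairs were 4.36% of those possible, against 10.0% over all named genes, with the 18 unnamed claudins counted as not raised. So counted, 2 and 4 were raised in clusters 6 and 9, a share below the 20.3% and 26.6% of all genes. In clusters 3 and 5, 3 and 2 were raised, a share above the 4.0% and 4.32% of all genes. Clusters 3, 5, 6 and 9 held 11 of the 12 raised pairs of these claudins. Cldn18, the claudin of stomach epithelium, was raised in all 4 of these, and its folds in the authors' deposited table were 2.91, 3.32, 2.38 and 2.83 in that order. No gene of the 8 was raised in all 4. Cldn2, a pore-forming claudin of leaky epithelia, was raised in clusters 3, 5 and 9, for which the authors' deposited table gave 2.01, 6.85 and 2.08. By the authors' deposited table, Cldn10 was raised 28.5-fold in cluster 3 and Cldn5, best known from endothelium, 5.06-fold in cluster 9. Cluster 9 listed 0 of 7 endothelial genes of the marker list, though VE-cadherin (Cdh5), also known from endothelium, was raised there, 2.703-fold by the authors' deposited table.

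Other plaque genes were raised where Tjp1 itself was not listed. The scaffold zonula occludens-3 (Tjp3) was raised in clusters 6 and 9, where the authors' deposited table put it at 3.41 and 5.63; in clusters 3 and 10, at 1.60 and 2.28, it was not. Cingulin (Cgn), a plaque protein that links these scaffolds to myosin, was raised in clusters 6 and 9, and the authors' deposited table put it at 8.74 and 9.83.

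**Figure D4:**
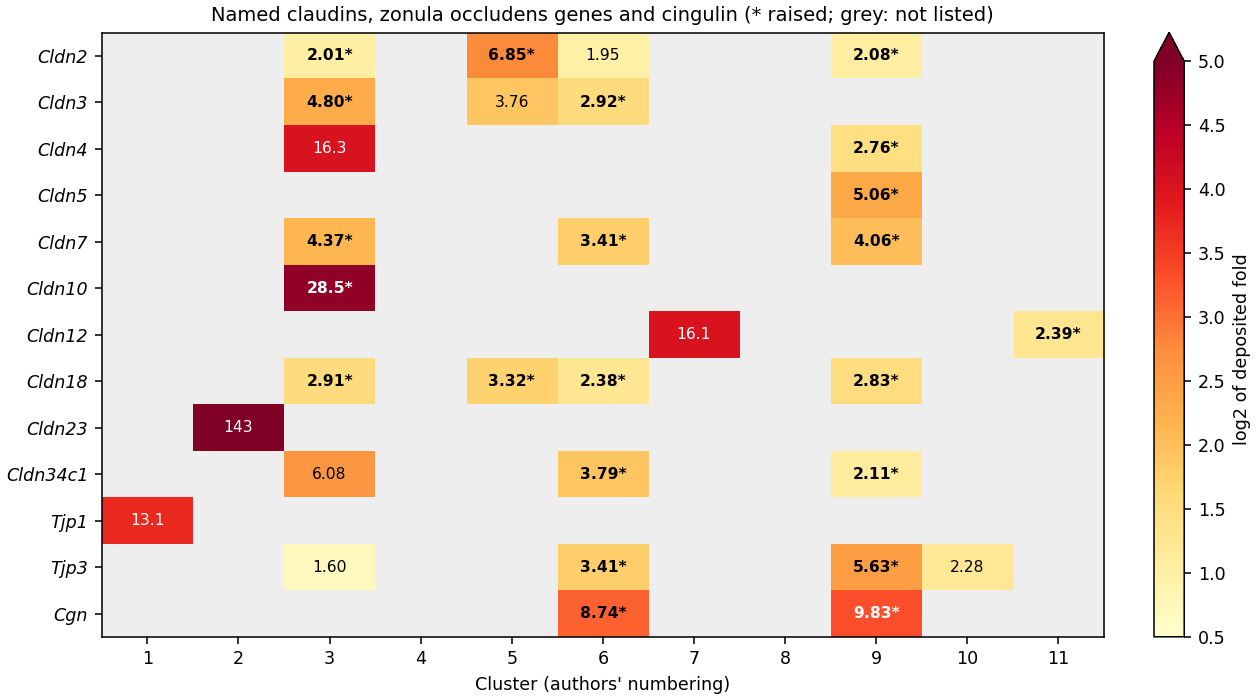
Deposited fold of the 3 claudins among the 8 genes and the 7 further ones sought and named in the table, Tjp1, Tjp3 and cingulin (rows) in the 11 clusters (columns); the colour gives the log2 of the fold, the printed number the linear fold, an asterisk a raised gene, and grey a gene that is not listed. Cldn18 is raised in clusters 3, 5, 6 and 9, Tjp3 and Cgn in clusters 6 and 9, and Tjp1 is listed in cluster 1 alone.

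The wider junction machinery had most of its raised genes in clusters 6 and 9, and the share raised was furthest above that of all genes, as a ratio, in cluster 3. The 7 junction lists together hold 93 genes besides the 8, and of these 38 were raised in cluster 9 and 27 in cluster 6. That is 40.9% and 29.0%, beside the 26.6% and 20.3% of all named genes given above. Of the 93, 18 claudins, 2 other cadherins and 1 membrane partner are named in no cluster. They count as not raised in these shares, while the shares of all named genes leave such genes out. In cluster 3, 14 of 93 were raised, which is 15.1% against 4.0% of all genes, and in cluster 5 there were 5, which is 5.38% against 4.32%. Cluster 11 had 11 of 93 raised, which is 11.8% against its 17.0% of all genes. In clusters 1 and 7, 4 were raised in each, which is 4.30% against 1.82% and 3.42% of all genes. Clusters 2, 4, 8 and 10 had 2, 3, 2 and 2 raised. That is 2.15%, 3.23%, 2.15% and 2.15%, against 2.89%, 18.6%, 6.36% and 4.90% of all genes. Clusters 3, 5, 6 and 9 held 75.0% of the raised pairs of these lists.

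Tight junction plaque and polarity genes had 11 of 17 raised in cluster 9, 7 in cluster 6 and 3 in cluster 3. That is 64.7%, 41.2% and 17.6%, beside 26.6%, 20.3% and 4.0% of all genes. Cluster 11 had 2 raised (11.8%, beside 17.0%). Clusters 1, 5, 7 and 10 had 1 each (5.88%, beside 1.82%, 4.32%, 3.42% and 4.90%). Next to Cgn, the largest raised folds of the authors' deposited table belonged to the polarity kinase Prkci (10.4, cluster 3) and the scaffold Patj (6.41, cluster 6). Membrane partners of the tight junction had 3 of 12 raised in each of clusters 3 and 9, and 4 in cluster 11. Clusters 1, 4, 5 and 6 had 1 each. The share was above that of all genes in clusters 1, 3, 5 and 11 (1.82%, 4.0%, 4.32% and 17.0%). It was below that of all genes in clusters 4, 6 and 9 (18.6%, 20.3% and 26.6%). In these shares 1 of the 12 genes, named in no cluster, counts as not raised. Clusters 3, 5, 6 and 9 held 8 of the 14 raised pairs of this list, beside 50.1% of those of all genes. The adhesion protein Cxadr, tricellulin (Marveld2) and the tricellular junction receptor Lsr had the largest raised folds in clusters 3, 5, 6 and 9. The authors' deposited table gave them folds of 10.3, 10.1 and 9.02 for cluster 3. A different set was raised in cluster 11, where the authors' deposited table had Clmp, Jam3, Ildr2 and Jam2 at 40.5, 38.4, 34.4 and 12.9; these 4 were named after their values were seen.

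Adherens junction partners are cytoplasmic proteins of that junction and the nectin adhesion receptors. Of their 11 genes, 6 were raised in cluster 9 and 4 in cluster 6 (54.5% and 36.4%, beside 26.6% and 20.3% of all named genes). In clusters 3 and 5, 0 were raised, beside 4.0% and 4.32% of all genes. Outside these clusters, 3 were raised in cluster 11 (27.3%, beside 17.0%) and 2 in cluster 7 (18.2%, beside 3.42%). Cluster 4 had 2 raised (18.2%, beside 18.6%), and clusters 1 and 8 had 1 each (9.09%, beside 1.82% and 6.36%). Clusters 3, 5, 6 and 9 thus held 52.6% of the raised pairs of this list, close to their 50.1% over all genes. Among these the largest raised folds of the authors' deposited table were those of vinculin (Vcl, 5.49) and the nectin Nectin3 (5.31) in cluster 9 and of plakoglobin (Jup, 4.51) in cluster 6. Desmosome genes had 5 of 9 raised in clusters 6 and 9 (55.6%, beside 20.3% and 26.6% of all genes). In cluster 3, 2 were raised (22.2%, beside 4.0%), and in cluster 5, 1 (11.1%, beside 4.32%). A single one was also raised in cluster 2, which listed none of the 8 genes, and in cluster 7 (11.1% in each, beside 2.89% and 3.42% of all genes). Desmocollin-2 (Dsc2) had the fold 8.003 for cluster 5 in the authors' deposited table, and plakophilin-2 (Pkp2) and desmoplakin (Dsp) had 5.83 and 4.23 for cluster 6.

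Other cadherins had 5 of 11 genes raised in cluster 9, 3 in cluster 6 and 2 in cluster 3. That is 45.5%, 27.3% and 18.2%, beside 26.6%, 20.3% and 4.0% of all genes. Clusters 1, 10 and 11 had 1 each (9.09%, beside 1.82%, 4.90% and 17.0%). In these shares 2 of the 11 genes, named in no cluster, count as not raised. Cdhr2, a cadherin that links microvilli, was raised 15.5-fold in cluster 3 by the authors' deposited table, P-cadherin (Cdh3) 7.11-fold in cluster 6 and N-cadherin (Cdh2) 5.69-fold in cluster 9. N-cadherin is best known from neural and mesenchymal cells, and cluster 11, with all 9 fibroblast genes raised, did not list it. Cdh11, a cadherin of mesenchyme, was raised in cluster 11 alone, 10.8-fold by the authors' deposited table.

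Partners and relatives of EPCAM, with surface serine proteases and their inhibitors, had 5 of 8 genes raised in cluster 6 and 4 in cluster 9. That is 62.5% and 50.0%, beside 20.3% and 26.6% of all genes. Clusters 2, 3 and 8 had 1 each raised (12.5%, beside 2.89%, 4.0% and 6.36%), and cluster 5 had 0 (beside 4.32%). By the authors' deposited table, the protease inhibitor Spint2 was raised in clusters 3, 6 and 9, at 3.24, 4.50 and 2.11. The protease Prss8 was raised in clusters 6 and 9, at 2.55 and 4.05. Matriptase (St14), which Spint2 inhibits, was listed by the authors' deposited table in clusters 3 and 5, at 4.85 and 6.88, and raised in neither.

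**Figure D5:**
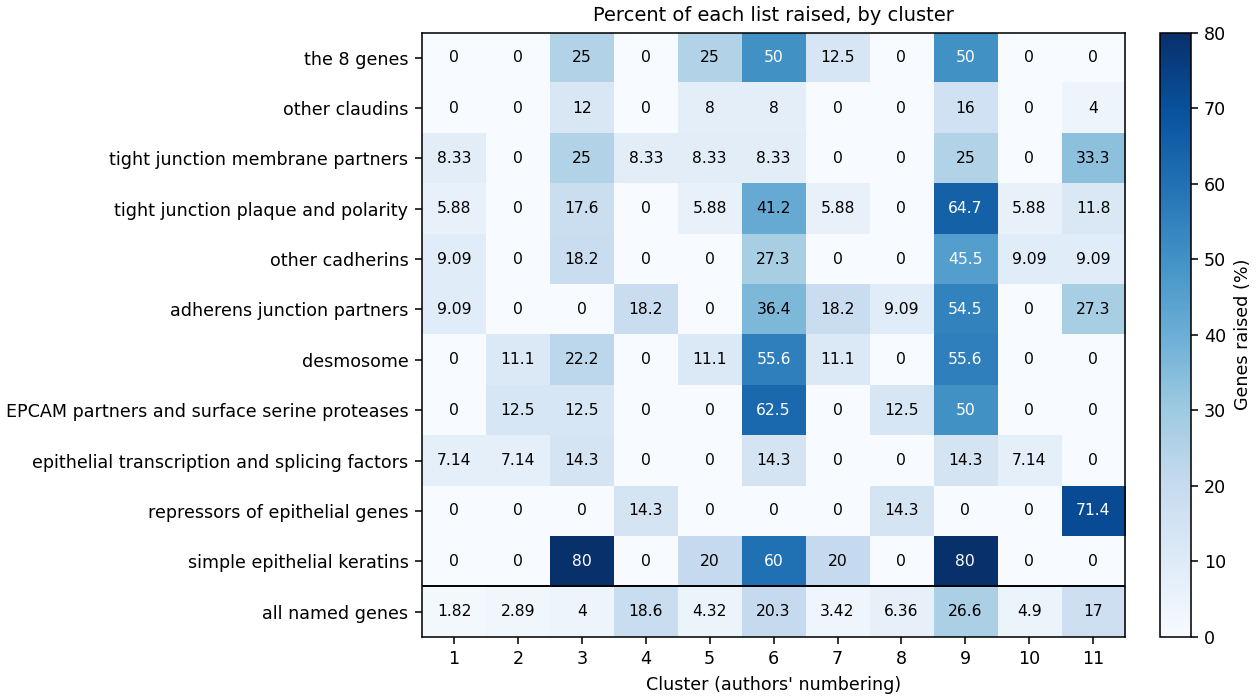
Percent of the genes of each list (rows) raised in each cluster (columns), with the share of all named genes in the bottom row; the colour and the printed number give the percent. The 8 genes reach 50.0% in clusters 6 and 9, and repressors of epithelial genes reach 71.4% in cluster 11, where none of the 8 was listed. Genes of a list that no cluster names count as not raised.

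Regulators of epithelial genes were set beside the members. Epithelial transcription and splicing factors had 2 of 14 genes raised in clusters 3, 6 and 9 and 0 in cluster 5, though cluster 5 listed 9 of them. Their 14.3% was above the share of all genes in cluster 3 (4.0%) and below it in clusters 6 (20.3%) and 9 (26.6%). In clusters 1, 2 and 10, 1 gene each was raised (7.14%, beside 1.82%, 2.89% and 4.90% of all genes). In these shares 3 of the 14 genes, named in no cluster, count as not raised. Among the raised factors, the authors' deposited table had Grhl1 at 7.50 in cluster 3 and Grhl2, an activator of Cdh1 and claudin genes, at 7.76 in cluster 9. Cdx1 and Cdx2, intestinal factors of which Cdx2 is known to activate the gene of cadherin-17 in human cells, were named in no cluster.

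Repressors of epithelial genes had 5 of 7 members raised in cluster 11 (71.4%, beside 17.0% of all named genes). Clusters 4 and 8 had 1 each raised (14.3%, beside 18.6% and 6.36%). The repressors had 0 raised in clusters 3, 5, 6 and 9, beside 4.0%, 4.32%, 20.3% and 26.6% of all genes. Some were listed there without being raised. By the authors' deposited table, cluster 3 listed Snai2 and Zeb1 at 3.77 and 1.81 (28.6%, beside 29.9% of all genes listed). Clusters 6 and 9 listed Tcf4 at 1.85 and 1.86 (14.3%, beside 36.4% and 38.9%), and cluster 5 listed 0 (beside 20.6%). For cluster 11 the authors' deposited table put Twist2, Snai1 and Twist1 at 38.7, 28.3 and 24.1, and it put Zeb2 at 8.27 in cluster 4 and 4.78 in cluster 8. These repressors were named after their values were seen, since none was raised beside the 8 genes.

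Snail and ZEB proteins bind the E-box CAGGTG, which reads CACCTG on the other strand, and repress Cdh1 through it in mouse and human cells. The promoter sequences of RefSeq (GRCm38.p6), each 250 bases before to 50 after a transcript start, were searched for it on both strands, which is 1 search since each spelling is the other's reverse. Of the 8 genes, 6 had an entry, and Cdh1 and Cdh17 had none. The motif was in the windows of 5 of the 6 genes, namely Cldn3, Cldn4, Cldn7, Epcam and Ocln, at 9 distinct positions, and not in that of Tjp1. Over all genes of that set, 22.6% had it in at least 1 window, and over all windows 20.2%. The 2 windows of Ocln overlap and share 1 of their positions. A match in letters does not show binding, and no binding was measured.

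The first pair of sequences below shows the 250 bases before a start, where 2 motifs lie in each, and the 3 that follow show a single motif with 12 bases on each side; capitals mark the motif and each reads 5′ to 3′ on the gene's strand.
Epcam, chr17:87635729-87635978, plus strand: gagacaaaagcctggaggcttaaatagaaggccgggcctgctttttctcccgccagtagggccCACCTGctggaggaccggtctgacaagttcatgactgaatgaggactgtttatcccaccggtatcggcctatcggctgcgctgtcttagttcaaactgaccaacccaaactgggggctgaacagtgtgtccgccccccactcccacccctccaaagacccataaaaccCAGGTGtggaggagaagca
Cldn7, second start, chr11:69965171-69965420, plus strand: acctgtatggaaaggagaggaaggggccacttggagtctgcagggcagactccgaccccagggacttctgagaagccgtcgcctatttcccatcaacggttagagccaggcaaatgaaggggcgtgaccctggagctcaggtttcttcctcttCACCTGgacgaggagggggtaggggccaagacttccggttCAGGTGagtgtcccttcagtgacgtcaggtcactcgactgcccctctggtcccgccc
Cldn4, chr5:134946931-134946960, minus strand: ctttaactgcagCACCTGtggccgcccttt
Cldn3, chr5:134986233-134986262, plus strand: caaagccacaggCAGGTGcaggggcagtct
Ocln, chr13:100552549-100552578, minus strand: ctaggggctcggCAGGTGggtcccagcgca
In Epcam the motifs began 187 and 19 bases before the start, and in Cldn7 97 and 57 bases before its second annotated start; the first start of Cldn7 had none in its window. In Cldn4 the motif shown began 14 bases before the start, and in Cldn3 at base 32 after it. The Ocln motif shown began 68 bases before the start at position 100552498.

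Genes with the most similar pattern were sought for the 6 genes listed in at least 3 clusters, by Pearson's r of log2 fold over the 11 clusters. Candidates were genes listed in exactly the same clusters and in no other, without predicted, ribosomal and mitochondrial genes. For Cldn7 there were 433 such genes, and the Notch ligand Dll4 came first, at 3.36, 2.76 and 3.17 in clusters 3, 6 and 9 by the authors' deposited table, followed by the transcription factor Pax9 and the semaphorin Sema3e. For Cdh17 there were 245, led by the RNA-binding protein Msi2 at 2.55, 4.03, 2.64 and 2.34 in clusters 3, 5, 6 and 9 by the authors' deposited table, then Qsox1 and Sptssb. Cdh1 had the fewest such genes: 16 were listed in clusters 5, 6, 7 and 9 alone, and Zfp706, Cdc42ep1 and Smarcal1 were the most similar. Of these clusters, cluster 7 had the shortest list, with 12.1% of all named genes.

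Epcam had 150 such genes and was nearest to Enpp2, Plxna2 and Ptms, of which 0 stayed among its 3 most similar genes when unlisted clusters were set to a fold of 1. Cldn3 had 69 and was nearest to Pate14, Trib2 and Pak1, and Ocln had 83 and was nearest to Clec2f and Pcdhgb2. None of the 8 genes could come up as similar to another of the 8, since each was listed in a different set of clusters. The values of r ran from 0.94 to 1.00, and most of the 11 values behind each are the same floor for clusters that do not list the gene, so high r is common for genes listed in the same clusters.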

How the data were processed

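A single deposited table was used, in which the authors compared 11 clusters of cells from 2 libraries. Per the file headers, each cluster has a column of gene names, one of p-values and one of fold changes, and the fold is a linear ratio. The submitters' processing notes name mm10, STAR 2.7.3a, Partek and DESeq2 3.5 without a role for each. The sources used here do not give the test behind the p, its adjustment, what the fold is relative to, or the filters on cells, doublets and genes. With 1 library of each tumor, that p cannot rest on replicate animals, so it served as a filter and is not printed. Large folds can come from genes seen in few cells. The table has 0 columns of per-sample values.

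The members and the gene lists were chosen with earlier results of these data known. Named were all 8 genes, the 3 largest raised folds of each junction or regulator list in clusters with at least 2 of the 8 raised, and the 3 genes most similar to each of the 8 listed in at least 3 clusters. Further list members (Cldn18, Cdh5, Cdh11, St14 and Tjp3) were named after their values were seen. A few genes within these rules are left out of the text. Clusters that did not list a gene entered r at the lowest deposited fold, 1.50, and predicted, ribosomal and mitochondrial genes were left out; the search was tested on simulated data. Positions are 1-based, from GENCODE M21 (GRCm38). Alternatives were other thresholds and another floor. Python 3.11.15 and pandas 2.3.3 were used.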

Additional observations from a re-analysis of the deposited data

How the results depend on the processing

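No paired analysis was possible because the table has no values per sample and each tumor type has 1 library. Of the 88 pairs, 13 were raised; the count was 7 at a fold of at least 3 and 20 with no limit on p. Without a limit on p, the count of the 8 genes raised went from 0 to 1 in cluster 1, from 2 to 5 in cluster 3 and from 2 to 5 in cluster 5. At a fold of at least 3 it went from 4 to 1 in cluster 6, from 1 to 0 in cluster 7 and from 4 to 2 in cluster 9, and at a p of at most 0.01 from 2 to 1 in cluster 5. Clusters 2, 4, 8, 10 and 11 stayed at 0 under these 4 settings, since they list none. The junction and regulator lists had 128 raised pairs, and 195 with no limit on p. Of the 18 most similar genes, 11 were the same with unlisted clusters at a fold of 1: 3 of 3 for Cdh1, 2 of 3 for Cldn3, Cldn7, Cdh17 and Ocln, and 0 of 3 for Epcam. The thresholds themselves set these changes. Depth is unknown, so which unlisted genes were too shallow to be seen cannot be told.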
